A study of Mus musculus with 6 samples.

Results

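Keratins are the intermediate filament proteins of epithelial cells, and 10 keratin genes were followed here in mouse pancreatic tumour organoids. They were chosen by symbol among the 54453 genes in each expression table, and all 10 were found. Krt7, Krt8, Krt18, Krt19, Krt20, Krt23 and Krt80 are taken as the simple-epithelial set of 7 genes. Krt5, Krt14 and Krt17 are taken as the basal set of 3 genes. The organoids were 3 lines of pancreatic ductal adenocarcinoma, T91, T113 and T118, grown in Matrigel, a basement membrane gel. The design text calls them KPC organoids, after a mouse model of pancreatic cancer that uses a Cre recombinase. All 6 libraries carried the genotype KPF/FC, which the labels do not spell out, nor do they name the Cre driver. T91 was a female line at passage 10, T113 a male line at passage 13 and T118 a male line at passage 11. Each line gave 1 library with a short hairpin RNA (shRNA) against Renilla luciferase, a gene that mouse cells lack, and 1 library with an shRNA against Scrib, hairpin #5523. Scrib encodes a scaffold protein of basolateral cell polarity. The treatment label describes viral infection and the design text describes plasmids, and only 1 Scrib hairpin was used.

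Keratin filaments are obligate heteropolymers that need a type I and a type II chain in equal amounts. Krt5, Krt7, Krt8 and Krt80 encode type II chains, and Krt14, Krt17, Krt18, Krt19, Krt20 and Krt23 encode type I chains. Simple epithelia such as the pancreatic duct are built on Krt8 with Krt18, joined in ducts by Krt7 and Krt19, whereas basal cells of stratified epithelia use Krt5 with Krt14. Basal keratins are also used as markers of a squamous or basal-like state in pancreatic cancer.

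The 10 genes lie in the 2 keratin clusters of the mouse genome (GRCm38). Krt7 (chr15:101411043-101430313, plus strand), Krt80 (chr15:101347444-101370162, minus), Krt5 (chr15:101707070-101712898, minus), Krt8 (chr15:101996698-102004482, minus) and Krt18 (chr15:102028180-102032027, plus) lie on chromosome 15. Krt18 is the only type I member there, and its start lies 23698 bases from that of Krt8, with the 2 genes pointing away from each other. Krt20 (chr11:99428403-99438150), Krt23 (chr11:99477974-99493137), Krt19 (chr11:100140810-100148665), Krt14 (chr11:100203162-100207548) and Krt17 (chr11:100256217-100261029) lie on chromosome 11, all on the minus strand.

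The RefSeq promoter table (GRCm38.p6) held a start for 7 of the 10 members. For 4 of them, the 100 bases nearest the RefSeq start that touch no annotated exon are printed, since they cover the Krt8 and Krt18 pair, the simple keratin that varied most and a basal keratin. The windows are Krt8 chr15:102004483-102004582 (minus strand, ending 140 bases before the start), Krt18 chr15:102028080-102028179 (plus strand, ending 36 bases before the start), Krt20 chr11:99438154-99438253 (minus) and Krt5 chr15:101712906-101713005 (minus), the last 2 ending at the start. Each reads 5′ to 3′ on the gene's strand, and capitals mark matches to a TATA box (TATAAA) or a CACCC box, on either strand.
Krt8: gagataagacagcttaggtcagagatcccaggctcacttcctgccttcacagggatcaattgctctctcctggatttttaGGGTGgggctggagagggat
Krt18: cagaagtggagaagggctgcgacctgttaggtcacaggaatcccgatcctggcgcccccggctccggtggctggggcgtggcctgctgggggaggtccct
Krt20: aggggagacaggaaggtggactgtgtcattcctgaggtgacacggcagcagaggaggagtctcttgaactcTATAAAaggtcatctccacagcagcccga
Krt5: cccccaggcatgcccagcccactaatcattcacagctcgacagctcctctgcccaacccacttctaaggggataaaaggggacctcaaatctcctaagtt
Krt20 alone among these 4 windows held TATAAA, beginning 29 bases before its start, and Krt8 held a CACCC box on the opposite strand, written GGGTG. Of 27025 RefSeq promoters, 5.95% held TATAAA and 26.8% held CACCC in the 100 bases before the start. These shares use the bases directly before the start, with exons not left out. The Krt8 and Krt18 windows lie further from the RefSeq start, and the Krt8 match begins 160 bases before that start, outside that stretch. Both windows end directly before the gene spans given above, which begin upstream of the RefSeq starts. GC boxes (GGGCGG, 25.2% of promoters) and AP-1 sites (TGANTCA, 2.7%) had no match in the 4 windows. A match describes the letters and is not a measured binding site.

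Total estimated counts ran from 24035559 to 36235773 per library, so 1 count was worth 0.0276 to 0.0416 CPM, the usual unit of counts relative to the library total. All CPM below are further scaled by TMM (trimmed mean of M-values) library factors. The hairpin lowered Scrib in every line: T91, T113 and T118 had 177, 157 and 158 CPM in their Renilla libraries and 29.7, 35.0 and 30.0 CPM in their Scrib libraries. The fitted log2 fold change was -2.38 (SE 0.12, edgeR adjusted p = 0.00582). Scrib was the 1 gene called among 14169 tested, or 0.00706% of them. The epithelial markers Epcam and Cdh1 were high throughout, with the 7 epithelial markers summing to 2294 to 2804 CPM. All 7 had lower fitted levels with the Scrib hairpin (median log2 fold change -0.17), and none was called. Cldn4 had the smallest p of them (log2 fold change -0.77, edgeR adjusted p = 0.77). It stood at 119 and 132 CPM in T91 (Renilla, then Scrib hairpin), 158 and 73.8 in T113, and 121 and 47.1 in T118. Acinar markers summed to 1.61 to 7.79 CPM, endocrine markers to at most 9.67, endothelial markers to at most 1.68 and immune markers to 2.12 to 5.64. The 8 fibroblast markers summed to 1.11 to 1.70 CPM with the Renilla hairpin and 1.43 to 7.78 CPM with the Scrib hairpin. The Scrib library of T91 alone carried the upper value, and the Scrib libraries of T113 and T118 had 1.43 and 2.23 CPM. That library also had the highest immune sum (5.64 CPM). Col1a1 and Col1a2, fibrillar collagen chains, were the 2 fibroblast markers tested, and both were higher with the Scrib hairpin. Their unadjusted edgeR p were 0.0145 and 0.0396, and neither was called. Of all genes tested, 1.55% were higher at an unadjusted p under 0.05. Lum was at 0 in all 6 libraries. Whether these cells had a part in any keratin value was not tested.

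The organoids expressed the 4 main simple keratins at 1217 CPM or more and the basal keratins at a few counts. The 4 genes Krt7, Krt8, Krt18 and Krt19 made up 96.2% to 97.4% of the counts of all 10 members in each library, and all members together made up 0.6% to 1.13% of the library. In bulk libraries such as these, fewer cells of a type and less RNA per cell cannot be told apart.

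**Figure D1:**
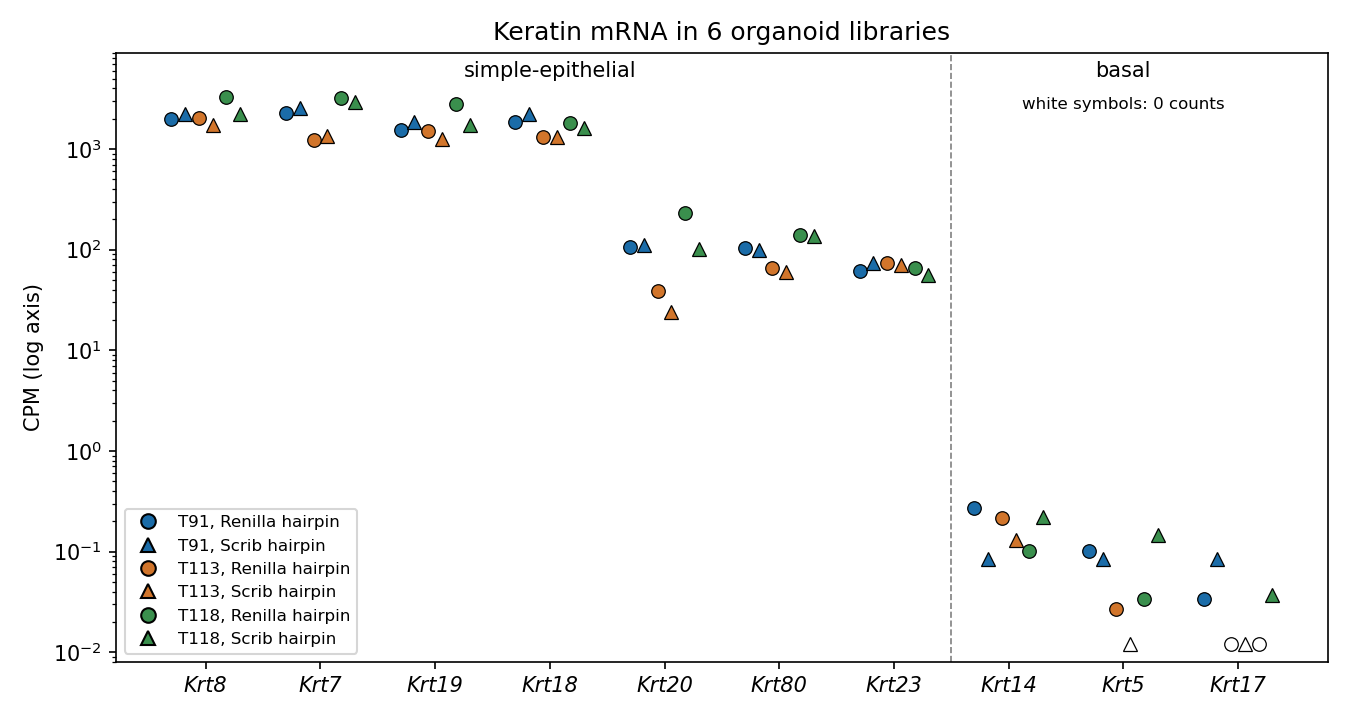
CPM of each keratin on a log axis, with circles for the Renilla and triangles for the Scrib hairpin, colours for the lines and white symbols at the bottom for libraries with 0 counts. Every simple keratin lies above 20 CPM in every library and every basal keratin below 0.3 CPM.

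Krt8, the type II partner shared by all simple epithelia, measured 1993 CPM in the Renilla and 2219 CPM in the Scrib library of T91, 2020 and 1749 CPM in those of T113, and 3325 and 2204 CPM in those of T118. Krt18, its usual type I partner, stood at 1872 and 2239 CPM in T91, 1312 and 1314 in T113, and 1801 and 1622 in T118, in the same order of hairpins. T118 with the Renilla hairpin was thus the highest library for Krt8 and T91 with the Scrib hairpin the highest for Krt18.

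Krt7, a type II chain of ductal and glandular epithelia, stood at 2261 and 2555 CPM in T91, 1217 and 1358 in T113, and 3191 and 2911 in T118. Krt19, the short type I chain long used as a duct marker, stood at 1550 and 1847 CPM in T91, 1522 and 1244 in T113, and 2790 and 1718 in T118. Both T113 libraries were the lowest for Krt7, below every T91 and T118 library, and the same held for Krt19 by a narrow margin, while T91 and T118 overlapped for Krt19.

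The other 3 simple keratins had mean CPM more than 10 times lower. Krt20, a type I chain known from intestinal, gastric and urothelial surface cells, stood at 107 and 112 CPM in T91, 39.0 and 24.02 in T113, and 230.1 and 100.5 in T118. Krt80, a type II chain found in many epithelia, stood at 104 and 99.2 CPM in T91, 66.2 and 59.4 in T113, and 139 and 137 in T118. Krt23, a type I chain, stood at 61.8 and 73.1 CPM in T91, 73.8 and 70.8 in T113, and 65.3 and 56.1 in T118. Krt80 kept each line's libraries together and apart from the other lines, while Krt23 varied least, with its highest library 1.32 times its lowest. Krt20 varied most of the 7, with a highest library 9.58 times its lowest.

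The basal keratins were read as single counts. In the order T91, T113 and T118, with the Renilla hairpin before the Scrib hairpin in each, Krt14 had 8, 2, 8, 4, 3 and 6 counts and Krt5, its type II partner, had 3, 2, 1, 0, 1 and 4. Krt17, a type I chain of hair follicles and wounded epidermis, had 1, 2, 0, 0, 0 and 1. The 3 basal keratins together had 4 to 12 counts per library against 178753 to 338199 counts of simple keratins. Their share of all member counts was highest in T91 with the Renilla hairpin, at 0.00506% (95% exact binomial interval 0.00262% to 0.00884%), and lowest in T118 with the Renilla hairpin, at 0.00118% (0.000322% to 0.00303%). Such intervals cover counting error only. Of the 31-base stretches of their transcripts, 28.2% for Krt14, 15.8% for Krt17 and 12.8% for Krt5 also occur in other genes, so single counts are uncertain. None of the 3 passed the filter on low counts. In the edgeR fit without a filter (27467 genes), none was called for the hairpin (lowest adjusted p = 0.942) or between lines (0.895), and none had an unadjusted p under 0.05. Where a gene had 0 counts, 3 counts is the limit that a count of 0 allows, which is 0.0828 to 0.125 CPM before scaling in these libraries.

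Levels can be compared between genes only per length of transcript. On the scale of CPM per kilobase of the longest protein-coding transcript, Krt18 averaged 1178 ± 248, Krt8 1150 ± 282 and Krt19 1129 ± 340 (SD, n = 6 libraries). These 3 levels differed from each other by less than their spread over libraries. Krt7 averaged 549 ± 198 on this scale, but 950 ± 342 when the median length of its protein-coding transcripts, 2368 bases, replaced the longest, 4094 bases. Krt20 (53.0 ± 37.9) and Krt23 (42.7 ± 4.5) came next and overlapped, followed by Krt80 (25.7 ± 8.6). Krt14 averaged 0.1, Krt5 0.03 and Krt17 0.017 CPM per kilobase, and the order of all 10 was the same with the median length.

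The ratio of all type I to all type II members on this scale was 1.41 ± 0.14 (SD, n = 6 libraries), from 1.23 to 1.59. It averaged 1.52 with the union of exons as length and 1.15 with the median transcript length, where it ran from 0.961 to 1.26. Without any length correction, which does not compare levels per length, it was 0.805. Krt19 tracked Krt8 closely, at 0.884 to 1.04 of its level in all 6 libraries. Krt19 over Krt7, with the longest transcripts as length, varied more. It was 1.78 with the Renilla and 1.88 with the Scrib hairpin in T91. In the same order it was 3.25 and 2.38 in T113, and 2.27 and 1.53 in T118. Krt18 did not keep a fixed ratio to Krt8: it was 1.28 with the Renilla and 1.38 with the Scrib hairpin in T91, 0.885 and 1.02 in T113, and 0.738 and 1.003 in T118. The ratio was thus higher with the Scrib hairpin in 3 of 3 lines, a difference that was not tested. Of the 31-base stretches of Krt8 transcripts, 32.2% also occur in the pseudogene Krt8-ps, which was assigned 1 to 24 counts, and of those of Krt18, 9.31% occur in Gm5200, with 1 to 2 counts. Genes on the opposite strand overlap the gene spans of Krt7 (Gm671, 14 to 32 counts), Krt8 (Gm36026, 13 to 31) and Krt80 (Gm35853, 27 to 57). Whether their exons overlap those of the keratin was not checked. No strand setting is stated, so how far reads are shared is not known.

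**Figure D2:**
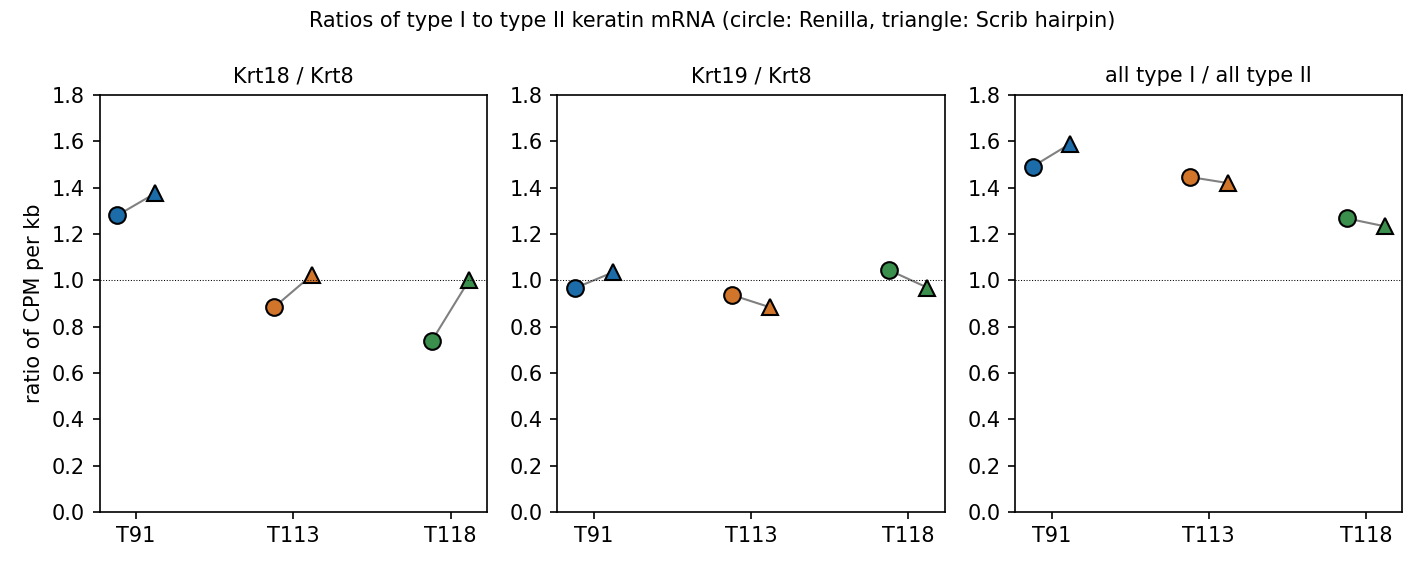
Ratios of CPM per kilobase in each line, with the Renilla hairpin as a circle and the Scrib hairpin as a triangle. Krt18 over Krt8 lies higher with the Scrib hairpin in each line, from 0.738 to 1.38 over all libraries, while Krt19 over Krt8 stays between 0.884 and 1.04.

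The effect of the Scrib hairpin was asked across the 3 lines, with the line as a term of the fit. None of the 7 simple keratins was called by edgeR's quasi-likelihood test at an adjusted p of 0.05, against 0.00706% of all genes tested, and DESeq2 and limma-voom also called 0. Of the 7, 2 had a fitted level above and 5 below that of the Renilla hairpin, with a median log2 fold change of -0.08, against -0.01 over all genes tested. The labels name no separate cultures within a line, so the residual spread is how the hairpin difference varies over the 3 lines. edgeR moderates this spread with that of other genes (prior degrees of freedom 4.43, residual 2). The SE, intervals and p-values of a gene therefore do not rest on its own 3 differences alone.

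Among the type II chains, the log2 fold change was 0.07 for Krt7 (SE 0.10, 95% interval -0.18 to 0.32, edgeR adjusted p = 0.9). For Krt8 it was -0.22 (SE 0.15, interval -0.58 to 0.15, adjusted p = 0.804). For Krt80 it was -0.08 (SE 0.09, interval -0.30 to 0.13, adjusted p = 0.858). All 3 intervals lie within 1.5-fold in either direction.

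Among the type I chains, Krt18 had a log2 fold change of 0.04 (SE 0.11, interval -0.23 to 0.30, adjusted p = 0.954) and Krt23 of -0.01 (SE 0.12, interval -0.29 to 0.27, adjusted p = 0.985). Krt19 stood at -0.25 (SE 0.18, interval -0.68 to 0.18, adjusted p = 0.805). Krt20, the most variable member, averaged 125 ± 96.9 CPM with the Renilla and 78.9 ± 47.9 CPM with the Scrib hairpin (SD over 3 lines), and the groups overlapped. Its log2 fold change was -0.61 (SE 0.24, interval -1.19 to -0.03), with an unadjusted edgeR p of 0.0417 and an adjusted p of 0.748. It was the 1 member with an unadjusted p under 0.05 and was lower; of all genes tested, 5.06% met this while lower and 1.55% while higher. Without line T91, which leaves only T113 and T118, Krt20 was called, with a log2 fold change of -0.96 (edgeR adjusted p = 0.0349). In that fit 94 of 14366 genes tested were called in all. Krt20 was not called without T113 (log2 fold change -0.56) or without T118 (-0.31).

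The lines differed in the direction of their keratin values. In T91, 6 of the 7 simple keratins were higher with the Scrib hairpin and 1, Krt80, was lower, with a median log2 ratio of 0.18. Fibroblast markers summed to 1.11 CPM in the Renilla and 7.78 CPM in the Scrib library of this line, and their part was not tested. In T113, 2 were higher and 5 lower (median -0.16), and in T118 all 7 were lower (median -0.22), against medians between -0.01 and 0.01 over all genes tested in each line. With 1 library per hairpin in a line, these ratios have no replicate check and were not tested.

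**Figure D3:**
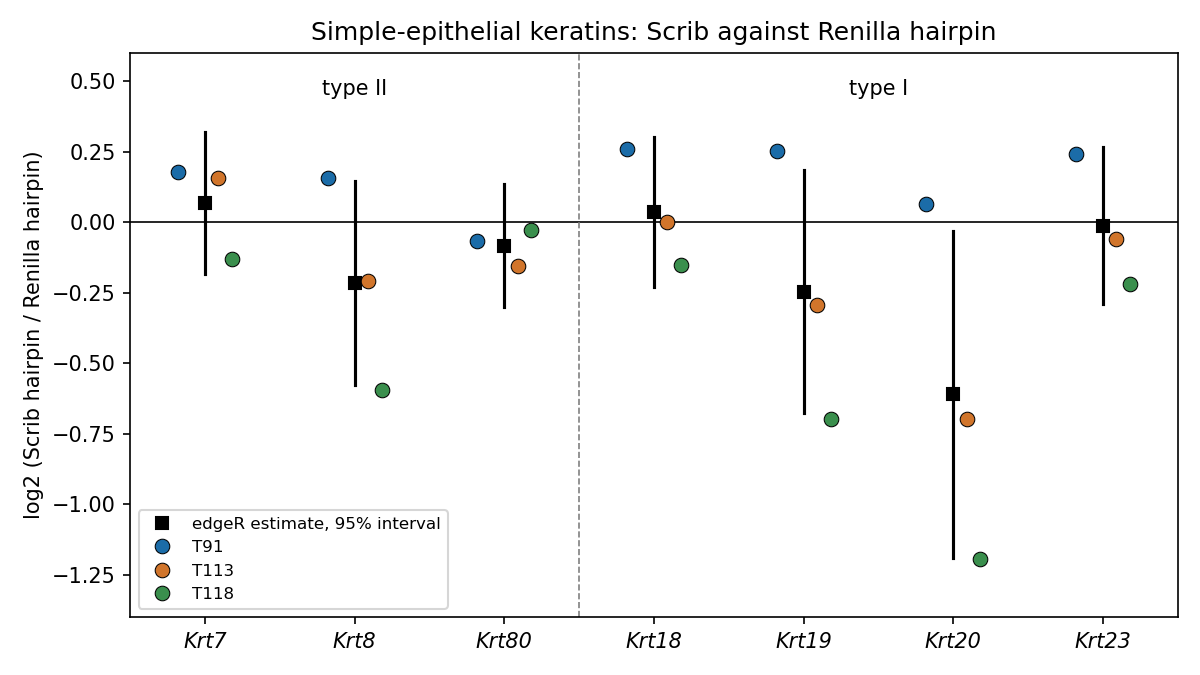
Log2 ratio of the Scrib to the Renilla hairpin library in each line (coloured circles), with the edgeR estimate over the lines (square) and its 95% interval (bar). The circles of T91 lie above those of T118 for all members but Krt80, and Krt20 spans the widest range, from 0.06 in T91 to -1.19 in T118.

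In T91 the log2 ratio of Krt20 was 0.06, against -0.70 in T113 and -1.19 in T118. Krt19 had 0.25, -0.29 and -0.70 in the same order, and Krt8 had 0.16, -0.21 and -0.59. These 3 genes thus shared the order T91, T113, T118, as did Krt7 (0.18, 0.16 and -0.13), Krt18 (0.26, 0.00 and -0.15) and Krt23 (0.24, -0.06 and -0.22). Krt80 differed, with -0.07, -0.16 and -0.03. A 1.5-fold lower level with the Scrib hairpin was reached by 0 members in T91, by 1 in T113 (Krt20) and by 3 in T118 (Krt8, Krt19 and Krt20), and a 1.5-fold higher level by none. Over all genes tested, T91 had 8.23% lower by this fold, T113 had 6.43% and T118 had 12.4%, while 4.64%, 3.53% and 4.71% were higher in that order.

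Of the simple keratins, 3 differed between the lines. The test across lines treated the Renilla and Scrib libraries of a line as its replicates after removing the hairpin term. Krt7 (edgeR adjusted p = 0.0045), Krt20 (0.0121) and Krt80 (0.00384) were called, 3 of 7 tested, against 14.0% of all genes tested. Krt18 (0.0531), Krt19 (0.167), Krt8 (0.185) and Krt23 (0.454) were not. The lines also differ in passage and, for T91, in sex, which cannot be told apart from the line.

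All 3 called genes were ordered T118, T91, T113 in their means. Krt20 was 5.07-fold higher in T118 than in T113 (log2 2.34, SE 0.30, adjusted p = 0.00935) and 3.67-fold lower in T113 than in T91 (log2 -1.88, SE 0.29, adjusted p = 0.0204). Krt7 was 2.38-fold higher in T118 than in T113 (log2 1.25, SE 0.13, adjusted p = 0.00385) and 1.87-fold lower in T113 than in T91 (log2 -0.90, SE 0.13, adjusted p = 0.0115). T113 was thus the line with the least Krt7 and Krt20.

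Krt80 was 2.2-fold higher in T118 than in T113 (log2 1.14, SE 0.11, adjusted p = 0.00322) and lower in T113 than in T91 by a log2 change of -0.69 (SE 0.11, adjusted p = 0.0176). Krt18 was also lower in T113 than in T91 (log2 -0.65, SE 0.14, adjusted p = 0.045), though it missed the threshold of the joint test. In all, 4 members were called lower in T113 than in T91, against 3.17% of genes called lower and 2.89% called higher there. In T118 against T113, 3 members were called higher, against 4.91% higher and 5.34% lower over all genes. No member was called between T118 and T91, where 5.24% of genes were called higher and 5.80% lower, and the nearest was Krt80 (log2 0.44, SE 0.11, adjusted p = 0.0541). The unadjusted 95% intervals of 2 members, Krt7 and Krt80, excluded 0 there. The line call of Krt20 was lost without the filter on low counts (adjusted p = 0.0974) and without the hairpin term (0.0833), and that of Krt7 without the Renilla library of T113 (0.0569).

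**Figure D4:**
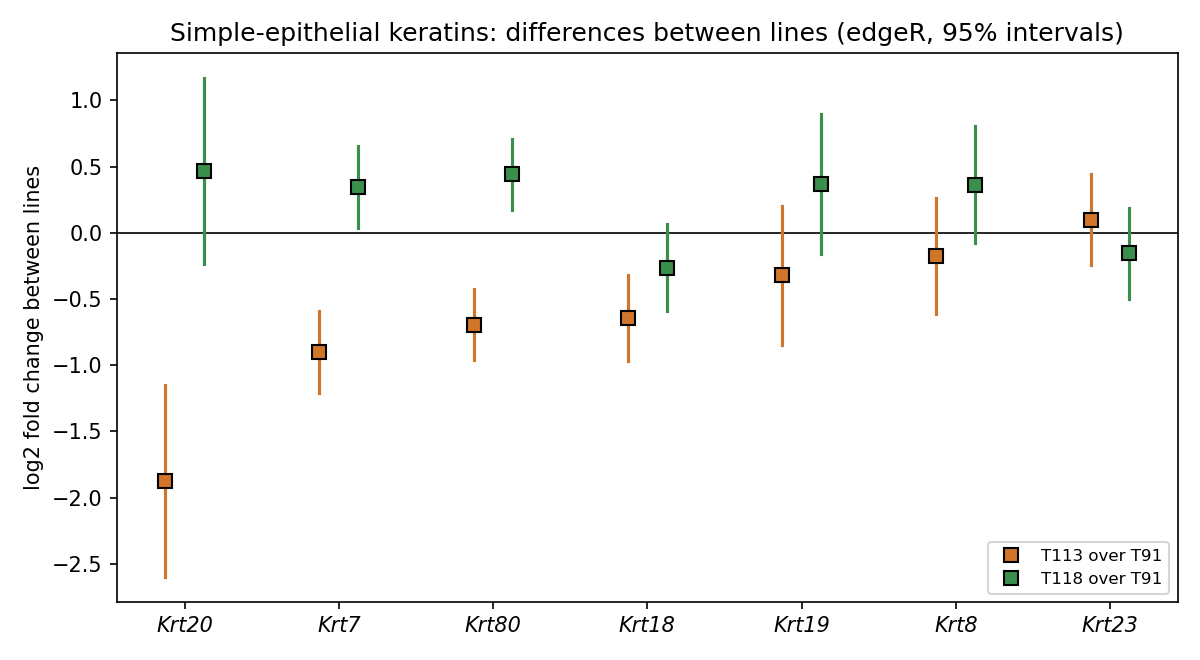
edgeR log2 fold changes of T113 over T91 (orange) and T118 over T91 (green) with 95% intervals for the 7 simple keratins. Krt20, Krt7, Krt80 and Krt18 lie below 0 in T113 with intervals that exclude 0, whereas Krt23 lies near 0 in both.

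Across the 6 libraries, which share 3 lines, the log2 CPM of Krt8 and Krt19 went together with a Pearson r of 0.991, and those of Krt7 and Krt80 with 0.965. Krt7 with Krt20 gave 0.924, while Krt8 with its partner Krt18 gave 0.426. Krt23 was negatively related to each of the other 6 simple keratins, from -0.15 to -0.72. Among 9999 genes of sufficient level, those most like Krt20 over the 6 libraries were Vps37b (r = 0.990), the gap junction gene Gjb1 (0.986) and Lrrc41 (0.984). Those most like Krt7 were Cavin2 (0.999), Serpinb6b (0.997) and Dgat2 (0.996), and those most like Krt80 were the actin gene Actg1 (0.994), Hr (0.992) and Slc39a13 (0.989). With 6 libraries of 3 lines, these values describe likeness of pattern and carry no test.

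Outside the 10 members, 8 more genes with a Krt symbol passed the filter on low counts, among them the pseudogene Krt8-ps, and 37 did not. Of these 37, 16 had 0 counts in all 6 libraries and 21 had at most 14 counts in any library. Krt4, a type II chain of mucosal stratified epithelia, was the highest of them, at 67.1 and 85.9 CPM in T91, 66.3 in T113 with the Renilla hairpin, and 23.2 and 23.9 in T118. The Scrib library of T113 had the most Krt4 of all 6, with a log2 ratio of 0.77 to its Renilla library. Its usual type I partner Krt13 stood at 1.04 and 0.547 CPM in T91, 2.05 and 2.28 in T113, and 30.2 and 18.5 in T118. The 2 partners were thus high in different lines: Krt4 was 3.21-fold lower in T118 than in T91 (edgeR adjusted p = 0.00331) and Krt13 was 30.2-fold higher there (adjusted p = 5.0e-04). Krt27, a type I hair follicle keratin, stood at 5.02 and 6.08 CPM in T118 and at or below 0.469 CPM in the other lines (line test adjusted p = 0.00475). Krt10, Krt79, Krt78 and Krt15 stayed between 0.260 and 2.86 CPM with no call between lines. None of the 8 was called for the hairpin; Krt4, with a log2 fold change of 0.40 (SE 0.15), had an unadjusted edgeR p of 0.0337 and an adjusted p of 0.748.

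**Figure D5:**
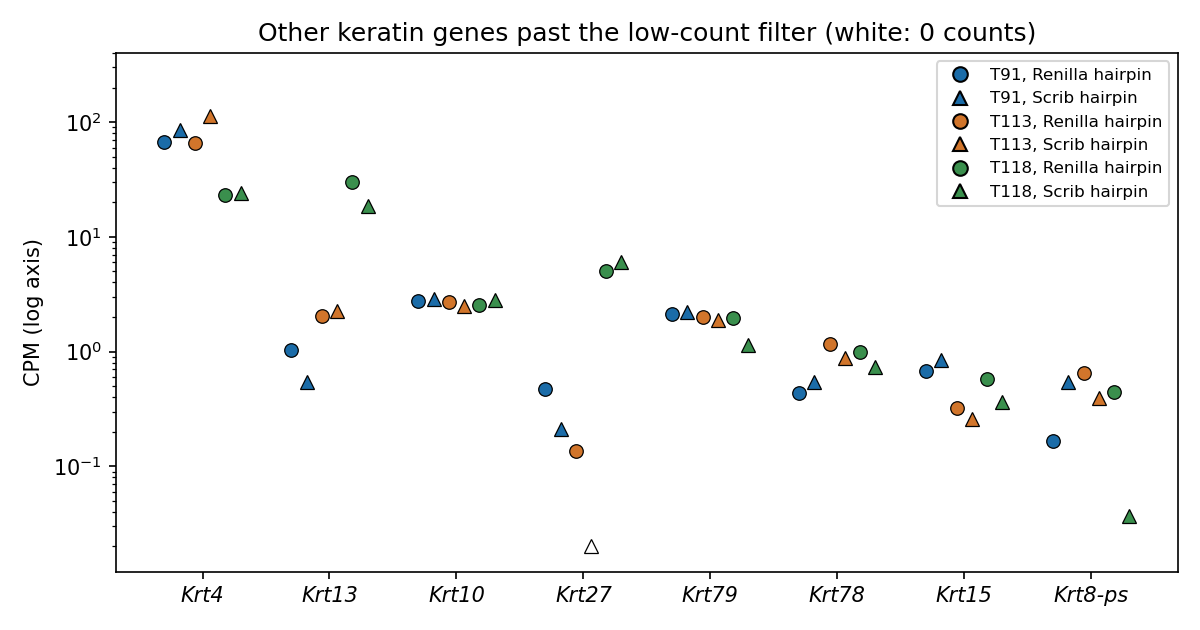
CPM on a log axis of the 8 other Krt genes that passed the low-count filter, with symbols and colours as for the members. Krt4 lies lowest and Krt13 and Krt27 highest in T118, at 23.2 and 23.9, 30.2 and 18.5, and 5.02 and 6.08 CPM.

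The genes that anchor, pair with or regulate keratins were read from lists, and edgeR called none of their members for the hairpin. At an unadjusted p under 0.05 stood 2 desmosome and plakin genes, 1 hemidesmosome gene, 1 partner or regulator and 0 of the other intermediate filament genes, all of them lower, against 5.06% of all genes tested. Of 12 desmosome and plakin genes, all tested, 3 had a higher and 9 a lower fitted level with the Scrib hairpin (median log2 fold change -0.06). The lowest edgeR p belonged to the plakin linkers Dst (log2 fold change -0.45, adjusted p = 0.712) and Plec (-0.25, adjusted p = 0.746) and to Evpl (0.13, adjusted p = 0.804). All 6 tested of 7 hemidesmosome genes had lower fitted levels (median -0.19), led by the laminin chain Lama3 (-1.82, adjusted p = 0.606), which stood at 0.163 to 2.05 CPM, and by the integrins Itga6 (-0.26) and Itgb4 (-0.20). Of the other intermediate filament genes, 6 of 8 were tested, with 4 higher and 2 lower (median 0.09). Vim, the filament of mesenchymal cells, stood at 0.201 CPM in the Renilla and 1.56 CPM in the Scrib library of T91 (6 and 37 counts). It was lower with the Scrib hairpin in T113 (0.727 and 0.456 CPM) and in T118 (0.648 and 0.329 CPM). Of 16 keratin partners and regulators, 14 were tested, with 3 higher and 11 lower (median -0.12). Klf4, a transcription factor of differentiating epithelia, came first, with 130.1 and 112 CPM in T91, 239 and 157 in T113, and 262 and 136 in T118 (log2 fold change -0.59, SE 0.15, edgeR adjusted p = 0.617).

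The list of the basal and squamous programme was split by level. Of its 15 genes, 9 stayed under 1 CPM in every library, among them Trp63, the master regulator of basal keratinocytes, at no more than 0.235 CPM, and Col17a1, at 0 counts in all 6. The others were measurable, with the integrin Itga3 at 524 to 929 CPM, the hyaluronan receptor Cd44 at 164 to 343 and Sfn at 52.9 to 112. The 6 tested, none with an unadjusted edgeR p under 0.05, had 1 higher and 5 lower fitted levels with the Scrib hairpin (median -0.17), and the cornified envelope genes Lor (0.42), Ivl (-0.53) and Sprr1a (-0.92) had the smallest p, with adjusted p of 0.779, 0.791 and 0.791. Sprr1a stood at 75.6 and 99.5 CPM in T91, 50.3 and 20.5 in T113, and 26.3 and 6.66 in T118, while Krt5 and Krt14 stayed at 0 to 8 counts.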

How the data were processed

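RNA-seq libraries of 6 samples were analysed, 1 per line and hairpin. Each table holds estimated counts by Ensembl gene, as deposited by the authors. Salmon 1.4.0, DESeq 2 and the build GRCm38 are named in the submitters' processing notes. The estimated counts were rounded, and genes were named from GENCODE annotation (54200 of 54453 identifiers had a symbol). The strand setting is not given in the sources used here. Genes past filterByExpr (minimum count 10, leaving 14169 genes) entered edgeR 4.0.16 in R 4.3.3. The fit used TMM, a robust quasi-likelihood test, line and hairpin terms and a Benjamini-Hochberg threshold of 0.05. It was run on simulated data with the same dispersion for every gene and the same hairpin effect in each line. That check does not cover hairpin effects that vary between lines. Ratios within a line used log2 CPM with a prior count of 2. The line numbers pair the samples, since both libraries of a pair come from the same line; their deviations correlated at 0.621 to 0.666. Alternatives used DESeq2 1.42.0 and limma 3.58.1. Named were all members, other Krt genes past the filter, up to 3 genes with the smallest p per list, and the 3 genes most like each of the 3 most variable members. The members and lists were chosen with earlier results of these data known. Single genes outside this rule (Vim, Trp63, Col17a1, Lum, Itga3, Cd44, Sfn, Car2, Sox9) were named after their values were seen.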

Additional observations from a re-analysis of the deposited data

Results flagged for a closer look

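The pseudogene Krt8-ps moved in opposite directions between lines. Its log2 ratio of the Scrib to the Renilla hairpin was -2.30 in T118 and 1.39 in T91. It rests on few counts, 5 and 13 in T91, 24 and 12 in T113, and 13 and 1 in T118. The difference was not tested, with 1 library per hairpin in each line. Its sequence holds 32.2% of the 31-base stretches of Krt8 transcripts, and the part of shared reads in these counts was not tested.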

How the results depend on the processing

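For the hairpin, 1 gene was called, and 64 without a filter on low counts, 63 with DESeq2, 8 with limma-voom and 9 to 94 with a line left out; no member was called in these fits except Krt20 without T91, so members called ranged from 0 to 1. The hairpin-only fit, with no replicate block for the line, called 1 gene and 0 members, with a log2 fold change of -0.67 for Krt20 (adjusted p = 1.0). With a line left out, the log2 fold change ran from -0.0745 to 0.128 for Krt18, turning below 0 without T91, and from -0.138 to 0.0877 for Krt23, turning above 0 without T113 and without T118; the cause was not tested. For the lines, 1989 genes were called, 1310 with a filter at an average of 5 CPM, where fewer genes were tested, and 1274 to 4328 with 1 library left out, an alternative chosen after seeing the data. Of the members, 3 were called, 5 with DESeq2 and 2 to 6 with 1 library left out. DESeq2 called 2650 of 14169 genes for the lines, and among the members it added Krt18 (adjusted p = 0.00125) and Krt19 (0.0327). Limma-voom also called Krt18 (adjusted p = 0.0487), as did edgeR without the low-count filter (0.015) or without the hairpin term (0.0288). Krt18 was not called in edgeR with DESeq2 size factors (0.0525), the filter at 5 CPM (0.0713) or non-robust dispersions (0.05002). The ratio of type I to type II was 1.15 with median transcript lengths and 0.805 without length correction, against 1.41. Ratios within lines moved by at most 0.0121 under other prior counts and scalings, and none turned sign. The basal share stayed within its counting interval under all 4 length choices in each of the 6 libraries. Basal keratins lie at the limit of depth, and 3 lines limit every hairpin test.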

Other observations

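Ductal marker genes also differed between the lines. Of 8 ductal markers, 7 were tested and 5 were called between lines, against 14.0% of all genes tested. Spp1, Onecut2 and Sox9 had their highest means in T91, Cftr in T113 and Car2 in T118. Spp1, which encodes the secreted protein osteopontin, stood at 358 and 349.5 CPM in T91 (Renilla, then Scrib hairpin), 39.0 and 32.7 in T113, and 42.4 and 28.4 in T118, with no call between T113 and T118 (edgeR adjusted p = 0.921). Cftr, the chloride channel of duct cells, was highest in T113, at 180.3 and 136 CPM, against 45.1 and 30.5 in T91 and 85.4 and 89.4 in T118. Car2, a carbonic anhydrase, was highest in T118, at 149.5 and 105 CPM, against 26.9 to 37.2 in the other lines. Sox9, a transcription factor of duct cells, stood at 44.6 and 39.0 CPM in T91, 15.8 and 17.9 in T113, and 30.7 and 35.0 in T118. Onecut2, also a transcription factor, had the smallest hairpin p of the list (log2 fold change -0.81, SE 0.14) with an edgeR adjusted p of 0.501, and was lower with the Scrib hairpin in 3 of 3 lines.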
